A study of Mus musculus with 28 samples.

Results

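miR-6931-5p is the mature RNA of the 5′ arm of the mouse Mir6931 hairpin, and it is 1 of 569 miRNA rows in the deposited array table, where it is named mmu-miR-6931-5p. It was chosen by its measured cartilage difference: its signal was higher after joint destabilization than after sham surgery by more than that of any other row. That choice used the cartilage arrays, so every cartilage value of miR-6931-5p is a description and is given without a test. The bone arrays took no part in it. The row holds a value on all 28 arrays, and is among the 438 rows with values in cartilage, the 490 with values in bone and the 359 with values in both.

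The arrays measured miRNAs in male mice with surgically induced osteoarthritis. Surgery was done on both knees at 10 to 12 weeks of age. In destabilization of the medial meniscus (DMM) the ligament that ties the medial meniscus to the tibia was cut, and in the sham operation it was exposed and left whole. Cartilage and the subchondral bone under it were cut by laser from sections of the medial tibial plateau 1 or 6 weeks later. This gave 8 groups: DMM and sham at 1 week and at 6 weeks, in each tissue. Each cartilage group held 3 arrays, each of RNA pooled from 3 mice, and each bone group held 4 arrays of single mice. The strain label of all 28 arrays is C57BL6, with no transgene or drug, while the treatment text speaks of C57BL6 and Jaffa mice. All mice, shams included, had an opened joint, and no unoperated mouse was analysed here. The same mice gave bone and cartilage, per the labels, which leave out the mice that each cartilage pool holds.

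A second tissue field names bone for the cartilage arrays too, so tissue was read from the source field. The defining cartilage miRNAs were checked against it. miR-140-3p had a group mean log2 signal of 13.57 in cartilage and 9.60 in bone among the 1-week shams. miR-455-5p, of the same list, had values in cartilage and no row of values in bone. Within a group, arrays correlated across rows with a median Pearson r of 0.987 in cartilage and 0.951 in bone. The array farthest from its group was pool 1 of the 6-week sham in cartilage (median r 0.968) and mouse 68 of the 1-week sham in bone (median r 0.883). The spread between arrays limits the precision of each value, and the number of arrays limits that estimate. In tissue samples such as these, fewer cells of a type and less RNA per cell cannot be told apart.

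A miRNA is cut from a hairpin transcript, loaded onto an Argonaute protein and guided to messenger RNAs mainly through its seed, the bases near its 5′ end. Messages that pair with the seed are repressed, so miRNAs with the same seed share predicted targets, and a miRNA with a seed of its own shares them with no family. In some hairpins, called mirtrons, both ends are splice sites and the hairpin is released as a small intron. In cartilage miRNAs take part in the upkeep of the matrix, with miR-140 the best known example. The mature sequence of miR-6931-5p is shown first with its seed (bases 2 to 8) in capitals, and then with each run of 4 or more G in capitals. All sequences are from RefSeq with the GRCm38.p6 build, which matched 466 of the 569 rows by name.
miR-6931-5p, seed: uGGGGUGGggagugggggacu
miR-6931-5p, runs of G: uGGGGuGGGGaguGGGGGacu

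The molecule has 21 bases, of which 14 are G, 4 are U, 2 are A and 1 is C. G makes up 66.7% of it, and G and U together 85.7%. It holds 3 runs of 4 or more G, the longest of 5. The seed is GGGGUGG, and 0 other rows of the table and 0 other names among 1679 mature miRNAs in the catalogue share it. Few rows are as rich in G. Among the other rows with a sequence, 6 had as large a share of G or a larger one, the largest being 77.3% in miR-5126. The median share was 33.3% over the cartilage rows and 31.8% over the bone rows. miR-5126 was the 1 other row with 3 runs of 4 or more G.

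The hairpin lies on the minus strand at chr11:102999848-102999921 in GRCm38.p6, and the mature 5p RNA at chr11:102999896-102999916. This is within the span of Dcakd, a protein-coding gene on the same strand (chr11:102994047-103028370), and within that of the long non-coding gene Gm34620 on the plus strand (chr11:102989947-103000648). Exon and intron positions were not used here, so whether the hairpin is exonic or intronic was not determined. The hairpin is printed with the 5p arm in capitals because its ends can be read from it.
Mir6931 hairpin: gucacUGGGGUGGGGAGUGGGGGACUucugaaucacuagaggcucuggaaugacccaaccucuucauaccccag
The hairpin of 74 bases begins with GU and ends with AG, the letters at the ends of most introns. These letters stand at both ends in 30 of 1005 mouse hairpins (2.99%), and in 23 of the 371 (6.20%) whose miRNA number is 6000 or above. The match is a description of the letters. The 3p arm of the hairpin has 0 rows in the deposited array table and was not analysed here.

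In cartilage 1 week after surgery, miR-6931-5p had log2 signals of 10.92, 11.45 and 11.03 in DMM pools 1, 2 and 3. The sham pools of that week had 8.42, 8.69 and 8.52. The groups did not overlap, and the lowest DMM pool stood 2.23 above the highest sham pool. The means were 11.14 ± 0.28 (SD, n = 3) and 8.54 ± 0.13 (SD, n = 3), a difference of 2.59 ± 0.21 (SE) on the log2 scale. Its 95% interval ran from 2.14 to 3.04, or from 4.42-fold to 8.23-fold around 6.03-fold. Since the row was chosen for this difference, its place at the head of the 438 rows is no result. The row next to it was miR-1187, at 1.92. As background, every DMM pool lay above every sham pool in 24.9% of the cartilage rows.

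At 6 weeks miR-6931-5p was still higher after DMM, by less. The DMM pools had 10.20, 10.03 and 9.61, and the sham pools 8.09, 8.60 and 7.88. The lowest DMM pool was 1.01 above the highest sham pool, sham pool 2, which stood apart from the other 2 shams. The means were 9.95 ± 0.30 and 8.19 ± 0.37 (SD, n = 3 each), a difference of 1.76 ± 0.21 (SE) with a 95% interval from 1.31 to 2.21, or 3.39-fold. This is 67.97% of the difference at 1 week on the log2 scale. Groups without overlap were found in 17.4% of the rows at 6 weeks and in 14.4% at both weeks. In 11.9% of the rows, miR-6931-5p among them, all 6 DMM pools lay above all 6 sham pools.

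**Figure D1:**
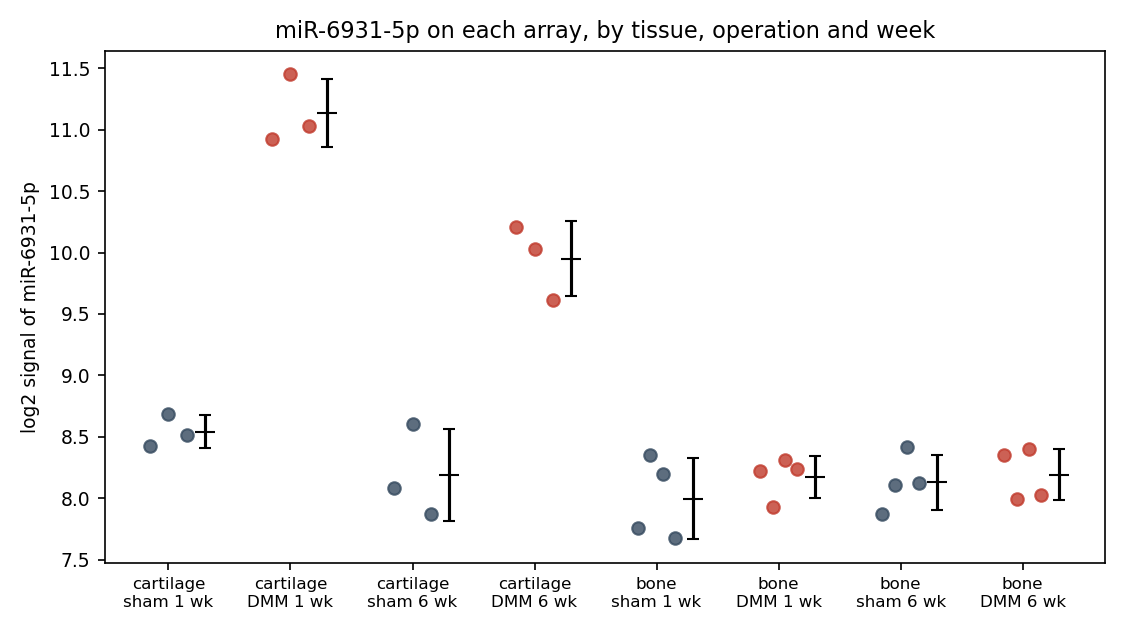
Log2 signal of miR-6931-5p (vertical axis) on each of the 28 arrays, by tissue, operation and week (horizontal axis). Red points are DMM, dark points sham, and the black bar beside each group is its mean ± SD (n = 3 in cartilage, n = 4 in bone). The cartilage DMM pools sit at 10.92 to 11.45 at 1 week and 9.61 to 10.20 at 6 weeks, above the 6 cartilage sham pools, and the bone groups overlap.

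The time course was read within each operation. Between weeks 1 and 6 the signal in DMM cartilage was lower by a log2 difference of -1.19 ± 0.21 (SE), to 0.440-fold. The lowest 1-week DMM pool stood 0.72 above the highest 6-week DMM pool. As background, every 6-week DMM pool lay below every 1-week DMM pool in 13% of the cartilage rows. In sham cartilage the difference between the weeks was -0.36 ± 0.21 (SE), and the 2 groups overlapped through sham pool 2 of week 6. The difference between DMM and sham was smaller at 6 weeks than at 1 week by -0.83 ± 0.29 (SE) on the log2 scale.

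miR-6931-5p varied more between pools than most cartilage rows. Its within-group SD was 0.287 on the log2 scale, against a median of 0.172, and 84.7% of the 438 rows had a smaller one. In bone its SD was 0.242 against a median of 0.333, and 27.1% of the 490 rows had a smaller one. Cartilage arrays are of pools and bone arrays of single mice, so the SDs do not compare the tissues alone.

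Markers of other cells were set beside these cartilage values, as log2 of their summed signals. The 4 cartilage markers (miR-140-3p, miR-140-5p, miR-455-3p and miR-455-5p) were all measured and summed to 13.94 to 14.22 in 1-week sham, 13.69 to 14.03 in 1-week DMM, 13.99 to 14.06 in 6-week sham and 13.61 to 13.85 in 6-week DMM. The 2 erythroid markers with values, of 5 listed, summed to 7.41 to 8.27 in 1-week sham, 7.58 to 7.99 in 1-week DMM, 8.50 to 10.18 in 6-week sham and 7.75 to 8.55 in 6-week DMM. The 3 leukocyte markers of 5 summed to 8.27 to 8.78, 8.21 to 8.69, 8.64 to 9.79 and 8.00 to 8.52 in the same order. The 4 muscle markers summed to 7.76 to 8.82, 7.51 to 7.82, 7.75 to 8.57 and 7.61 to 9.27. The single endothelial marker with a value, of 2, had 5.82 to 6.37, 5.36 to 7.24, 5.93 to 7.18 and 5.20 to 6.30. The 3 mesenchymal markers of 5 summed to 10.68 to 10.80, 10.15 to 10.80, 10.62 to 10.87 and 9.88 to 10.65. At 1 week the cartilage and the leukocyte sums each overlapped between DMM and sham, and at 6 weeks each was lower in every DMM pool. The share of all rows that separate in that direction was not counted. In the other direction it was 17.4% at 6 weeks. The muscle markers did not move together. miR-206-3p was higher in DMM by 0.53 at each week (limma adjusted p = 0.0107 and 0.0166). Over all 438 rows, limma called 15.8% and 9.59% higher. miR-1a-3p, miR-133a-3p and miR-133b-3p had differences of -0.97, -0.73 and -0.78 at 1 week. At 6 weeks these were -0.06, 0.04 and 0.05, and none was called at either week. The part of these cells in the miR-6931-5p values was not tested.

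In subchondral bone no change of miR-6931-5p passed the test. At 1 week the log2 signals were 8.22, 7.93, 8.31 and 8.24 in DMM mice 67, 77, 85 and 93. In sham mice 66, 68, 86 and 96 they were 7.76, 8.36, 8.20 and 7.67. The groups overlapped, since sham mouse 68 had the highest signal of the 8 mice. Every DMM mouse lay above every sham mouse in 0.816% of the bone rows. The difference was 0.18 ± 0.18 (SE), or 1.13-fold, with a 95% interval from 0.865-fold to 1.48-fold and an adjusted p of 0.999 (limma, Benjamini-Hochberg over the 490 bone rows). The exact two-sided permutation test over the mice gave p = 0.343, with 0.0286 the smallest p that its 70 splits allow. Over all bone rows limma called 0 (0%) at an adjusted p of 0.05, and 3 rows (0.612%) had an unadjusted p under 0.05. Without sham mouse 68 the difference was 0.30, and without sham mouse 96 it was 0.07. Neither passed.

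At 6 weeks the bone signals were 8.35, 8.00, 8.40 and 8.03 in DMM mice 5, 6, 21 and 25, and 7.88, 8.10, 8.42 and 8.12 in sham mice 10, 12, 22 and 26. The groups lay over each other, with the highest signal in a sham mouse. At 6 weeks 0.204% of the bone rows had every DMM mouse above every sham mouse. The difference was 0.06 on the log2 scale, with a 95% interval from -0.33 to 0.45 and a limma adjusted p of 0.998. The exact two-sided permutation test gave p = 0.714. limma called 0 of the 490 rows (0%), and 2 (0.408%) had an unadjusted p under 0.05.

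Between the weeks, bone miR-6931-5p differed by 0.13 in sham mice (limma adjusted p = 0.708, exact two-sided permutation p = 0.543) and by 0.02 in DMM mice (limma adjusted p = 0.967, exact two-sided permutation p = 0.971). limma called 0 rows in either comparison, where 54 (11%) and 95 (19.4%) had an unadjusted p under 0.05. The difference of the DMM effect between the weeks was -0.12 ± 0.26 (SE), with a limma adjusted p of 1.00. limma called 0 rows (0%) there, and 1 (0.204%) had an unadjusted p under 0.05.

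At 1 week the ratio of DMM to sham was 1.13-fold in bone and 6.03-fold in cartilage, for which the row was chosen. In a fit to all 28 arrays the DMM effect was larger in cartilage than in bone by 2.41 ± 0.28 (SE) at 1 week and by 1.70 ± 0.28 (SE) at 6 weeks on the log2 scale. These differences include the cartilage values used in the choice and are given without a test. That fit treated arrays of the tissues as independent.

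Over the 8 groups the mean log2 signal ran in this order: cartilage DMM at 1 week, 11.14, cartilage DMM at 6 weeks, 9.95, cartilage sham at 1 week, 8.54, then bone DMM at 6 weeks and cartilage sham at 6 weeks, both 8.19. Bone DMM at 1 week followed at 8.18, bone sham at 6 weeks at 8.13 and bone sham at 1 week at 8.00. The first 3 groups in this order did not overlap, with array gaps of 0.72 and 0.92 between neighbours. The arrays of cartilage sham at 1 week and bone DMM at 6 weeks were 0.03 apart, and the groups after that overlapped. Nothing in the sources states whether cartilage and bone arrays were normalized as 1 set, so the order across tissues carries that limit.

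In the plane of both cartilage differences miR-6931-5p lay at 2.59 and 1.76. Many of the rows nearest to it held an alternating run of U and G. Rows with at least 6 such bases in a row (UGUGUG or GUGUGU) numbered 12 in cartilage. Of these, 10 were called higher and 1, let-7b-5p, lower in DMM at 1 week by limma at an adjusted p of 0.05, with a median log2 difference of 1.13. At 6 weeks 9 were higher and 0 lower, with a median of 0.99. Over the 437 other cartilage rows 68 were higher and 53 lower at 1 week and 41 higher and 32 lower at 6 weeks, with medians of -0.02 and -0.04, and the shares of all 438 called were 15.8% higher and 12.1% lower at 1 week, and 9.59% higher and 7.31% lower at 6 weeks. miR-6931-5p itself has no such run.

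**Figure D2:**
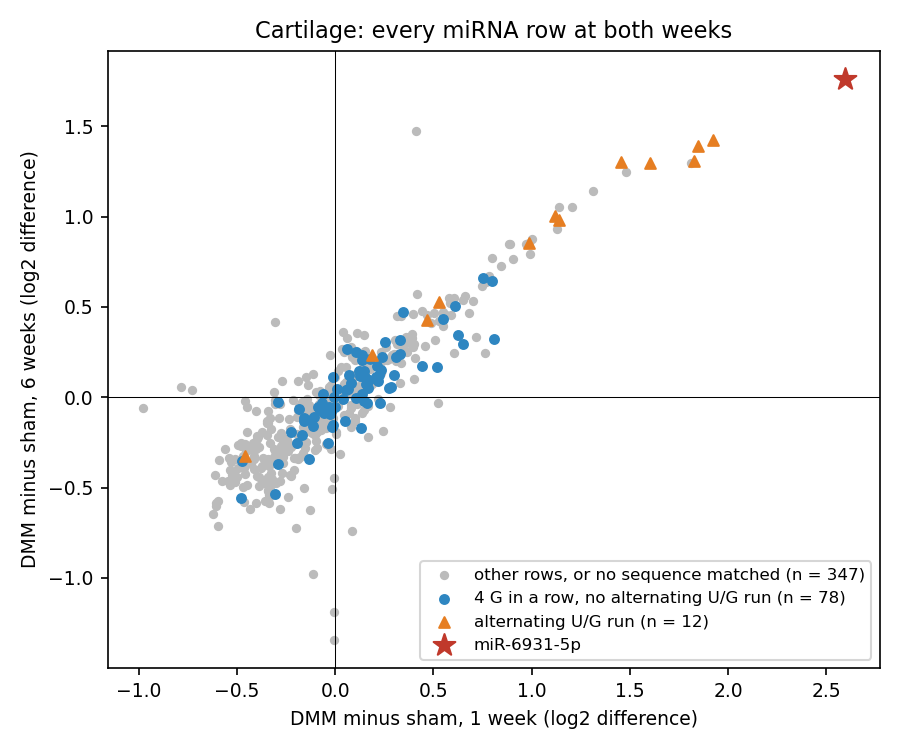
Log2 difference between DMM and sham cartilage at 1 week (horizontal axis) and at 6 weeks (vertical axis) for the 438 cartilage rows, 1 point a row. The star is miR-6931-5p at 2.59 and 1.76, the triangles are 12 rows with an alternating run of U and G, and the blue points are 78 rows with 4 G in a row. The triangles reach up to 1.92 at 1 week, while no blue point lies above 0.81.

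The rows whose course over the 12 cartilage arrays was most like that of miR-6931-5p were found by Pearson r of the log2 signals. The r is a description, since all rows share the arrays and their normalization, and a row that differs between DMM and sham gets a high r from that alone. Of 437 rows, 11 had an r of 0.9 or above, 3 had -0.9 or below, and the median was -0.01. The 8 highest were miR-1306-3p (r = 0.956), miR-466i-5p (0.926), miR-3082-5p (0.923), miR-3101-3p (0.919), miR-669n (0.918), miR-574-5p (0.918), miR-1187 (0.916) and miR-669f-5p (0.909). The 6 of them with a sequence are printed with their runs of alternating U and G in capitals, to show that they do not resemble miR-6931-5p.
miR-1306-3p: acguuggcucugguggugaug
miR-3082-5p: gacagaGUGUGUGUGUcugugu
miR-3101-3p: uagcuuugguggauggucuuu
miR-669n: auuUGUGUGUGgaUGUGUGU
miR-574-5p: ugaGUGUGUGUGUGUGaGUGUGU
miR-1187: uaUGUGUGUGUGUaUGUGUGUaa
miR-1306-3p and miR-3101-3p carry no such run, and the other 4 do. The lowest r were those of miR-28a-5p (-0.948), miR-196b-5p (-0.940), miR-28c (-0.917) and miR-374c-5p (-0.895), which ran against it.

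miR-1306-3p had the highest likeness on a small scale. Its log2 signals were 6.50, 6.54 and 6.67 in the 1-week DMM pools, 6.06, 6.07 and 6.06 in the 1-week shams, 6.39, 6.43 and 6.18 in the 6-week DMM pools and 5.96, 5.89 and 5.75 in the 6-week shams. Like miR-6931-5p it was highest in DMM at 1 week, but its DMM difference was 0.51 at 1 week and 0.47 at 6 weeks. Without the 2 pools farthest from the median of miR-6931-5p its r was 0.947. miR-466i-5p had 12.68, 12.95 and 13.18 in 1-week DMM against 11.01, 11.18 and 11.18 in sham. At 6 weeks it had 12.68, 12.92 and 12.22 in DMM against 11.61, 11.21 and 11.10 in sham. In these 2 rows DMM pool 3 was the highest at 1 week, where DMM pool 2 was the highest for miR-6931-5p.

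The rows that share most of its letters had smaller differences between DMM and sham cartilage. miR-6931-5p holds 15 different words of 6 bases. The 6 rows that share the most of them are printed with the shared words in capitals. miR-7045-5p shares 8, miR-3102-5p shares 4 and was taken by name from 5 rows tied at 4, and the other 4 share 5 each.
miR-7045-5p: agcGGGUGGGGGAGGGGGACU
miR-6944-5p: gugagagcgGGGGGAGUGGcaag
miR-6956-5p: uGAGUGGGUGGGACUggccu
miR-7018-5p: gugagcagacaGGGAGUGGUGGGG
miR-705: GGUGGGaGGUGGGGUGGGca
miR-3102-5p: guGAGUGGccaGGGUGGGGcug
The log2 differences of these rows between DMM and sham cartilage at 1 and 6 weeks were 0.16 and -0.03 for miR-7045-5p, -0.02 and -0.08 for miR-6944-5p and -0.25 and -0.23 for miR-6956-5p. They were 0.33 and 0.32 for miR-7018-5p, 0.12 and 0.12 for miR-705 and -0.01 and 0.00 for miR-3102-5p. All lay below the 2.59 and 1.76 of miR-6931-5p. limma called miR-7018-5p higher at 1 week (adjusted p = 0.0421) and called none of the other 5 at either week. Over all 438 cartilage rows it called 15.8% higher and 12.1% lower at 1 week, and 9.59% higher and 7.31% lower at 6 weeks. Their r with miR-6931-5p over the 12 cartilage arrays was 0.792 for miR-705 and 0.779 for miR-7018-5p. It was 0.309 for miR-7045-5p, 0.223 for miR-6944-5p, 0.215 for miR-3102-5p and -0.542 for miR-6956-5p. With 75th-percentile centring the r of miR-705 was 0.321 and that of miR-7018-5p 0.665. Within cartilage groups they had 0.234 and -0.455. miR-7045-5p, which ends in the same GGGGGACU, had log2 signals of 6.93, 6.97 and 6.93 in the 1-week DMM pools and 6.66, 6.79 and 6.90 in the shams.

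**Figure D3:**
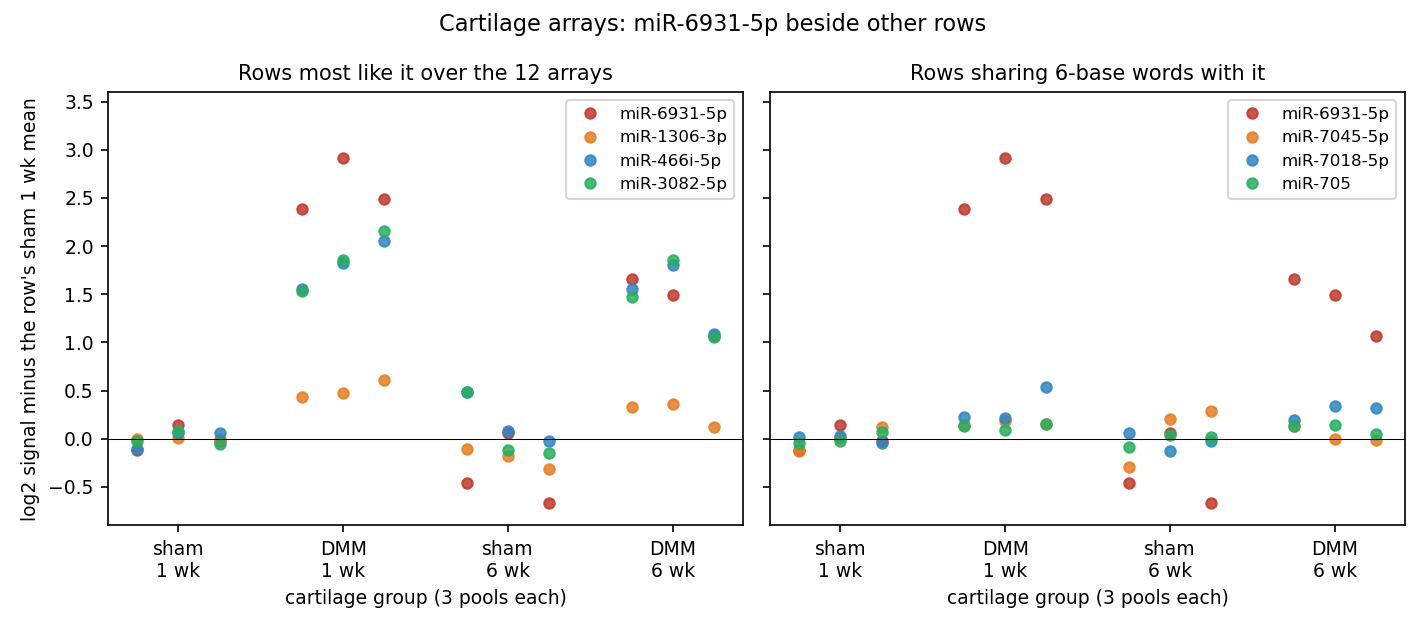
Log2 signal in each cartilage pool minus the mean of the same row in the 1-week sham pools (vertical axis), by group (horizontal axis, 3 pools each). The left panel sets miR-6931-5p beside the 3 rows most like it over the 12 arrays, and the right panel beside 3 rows that share words of 6 bases with it. miR-466i-5p and miR-3082-5p are also higher in DMM than in sham at both weeks. Their 1-week and 6-week DMM pools overlap, while those of miR-6931-5p do not. The DMM differences of miR-7045-5p, miR-7018-5p and miR-705 are 0.16, 0.33 and 0.12 at 1 week.

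The likeness was then read within groups, after each group's mean was removed. Within cartilage groups 11 of 437 rows had an r of 0.7 or above with miR-6931-5p and 4 had -0.7 or below, with a median of 0.06. Over all 12 pools the 8 rows that resembled it most over the cartilage arrays had lower values within groups. They were 0.489 for miR-1306-3p, 0.369 for miR-466i-5p, 0.302 for miR-574-5p, 0.255 for miR-1187, 0.238 for miR-3082-5p, 0.143 for miR-669n, 0.373 for miR-669f-5p and -0.106 for miR-3101-3p. These values turned on a pair of pools, pool 2 of the 6-week sham and pool 2 of the 1-week DMM, which lay farthest from the median of the miR-6931-5p deviations. Without them the r was 0.80, 0.760, 0.752, 0.707, 0.674, 0.538, 0.572 and 0.458 in the same order. Over the 12 rows with an alternating U and G run the median r was 0.90 over all cartilage arrays and 0.15 within groups. The latter was -0.06 without pool 3 of the 6-week sham and 0.36 without its pool 2.

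The 8 highest within cartilage groups were miR-341-3p (0.864), miR-7224-3p (0.859), miR-6956-5p (0.785), miR-3470a (0.766), miR-3968 (0.754), miR-678 (0.740), miR-6997-5p (0.731) and miR-7047-5p (0.719). The lowest were let-7d-3p (-0.795), miR-378b (-0.746), miR-181d-5p (-0.741) and miR-721 (-0.722). miR-341-3p moved on a far smaller scale, with a within-group SD of 0.061 against 0.287. The pools that carried these values were pool 2 of the 6-week sham, 0.41 above its group mean in miR-6931-5p and 0.27 above in miR-7224-3p, and pool 2 of the 1-week DMM, 0.32 and 0.25 above. Without these 2 pools the r was 0.649 for miR-341-3p and 0.567 for miR-7224-3p, below that of miR-1306-3p.

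In bone, where operation and week made no called difference, miR-6931-5p varied from mouse to mouse with rows that hold a run of G, and also with rows that hold an alternating run of U and G. Within bone groups 26 of 489 rows had an r of 0.7 or above and 40 had -0.7 or below, with a median of -0.02. The 8 highest were miR-7018-5p (0.847), miR-466g (0.828), miR-5126 (0.798), miR-680 (0.792), miR-7686-5p (0.791), miR-671-5p (0.790), miR-1897-5p (0.774) and miR-1224-5p (0.771). The 6 with a sequence are printed with runs of 4 or more G in capitals, which each of them holds. The share of G among these runs from 36.0% in miR-7686-5p to 77.3% in miR-5126.
miR-7018-5p: gugagcagacagggagugguGGGG
miR-5126: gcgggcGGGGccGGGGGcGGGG
miR-680: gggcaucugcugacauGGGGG
miR-7686-5p: ccuuccacuggaccuGGGGcugggc
miR-671-5p: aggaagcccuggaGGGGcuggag
miR-1224-5p: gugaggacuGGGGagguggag
Rows with an alternating U and G run were also among the 26: miR-3082-5p (0.749), miR-574-5p (0.748) and miR-1187 (0.747). The lowest were miR-652-3p (-0.825), miR-10a-5p (-0.812), miR-1231-5p (-0.807) and miR-697 (-0.804). After quantile normalization these 4 had -0.248, -0.513, -0.570 and -0.546, and the 8 highest had 0.659 (miR-671-5p) to 0.850 (miR-466g).

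The mice that set these values were read one by one. Sham mouse 68 of week 1 lay 0.36 above its group mean in miR-6931-5p, 0.54 above in miR-7018-5p and -0.71 from it in miR-10a-5p. Sham mouse 22 of week 6 lay 0.29 above in miR-6931-5p and 0.46 above in miR-7018-5p. Sham mouse 96 of week 1 was lowest in miR-6931-5p, at -0.32, and stood 0.77 above its group mean in miR-10a-5p. Without the 2 mice farthest from the median the r was 0.865 for miR-7018-5p and -0.715 for miR-10a-5p.

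**Figure D4:**
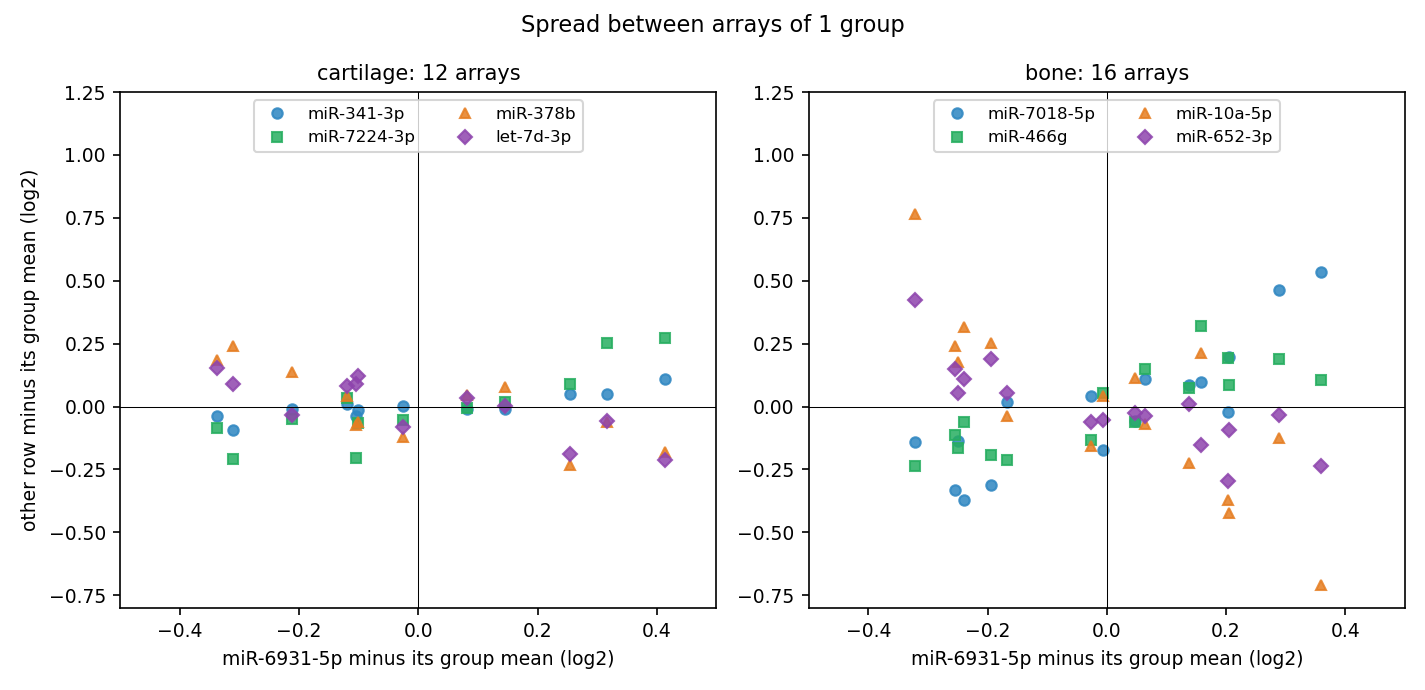
Deviation of miR-6931-5p from its group mean (horizontal axis, log2) against that of another row (vertical axis, log2) on each array, in cartilage (left, 12 pools) and bone (right, 16 mice). The 2 rows with the highest and 2 with the lowest correlation in each tissue are shown. On the deposited values, miR-7018-5p and miR-466g run with miR-6931-5p in bone, and miR-10a-5p and miR-652-3p run against it. After quantile normalization the r of miR-652-3p was -0.248. miR-341-3p in cartilage stays within 0.11 of its group means.

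The link of likeness with G content was read over all rows with a sequence. In bone, the share of G in a row correlated with its within-group likeness to miR-6931-5p at r = 0.44 over 398 rows, and in cartilage at 0.07 over 363 rows. These correlations are across rows, which share arrays and are not independent. The 82 bone rows with GGGG had a median within-group r of 0.42, and 61 of them were positive, against a median of -0.02 over all 489 rows. That median was 0.24 without sham mouse 68. It was 0.27 after quantile normalization. The 20 bone rows with an alternating U and G run had a median of 0.38, with 17 positive, which was 0.18 without sham mouse 22 and 0.16 after quantile normalization. In cartilage the 78 rows with GGGG had a median within-group r of 0.09 against 0.06 over all rows, and of -0.05 without pool 3 of the 6-week DMM.

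The other rows with the most G had smaller differences between DMM and sham cartilage than miR-6931-5p. The 10 most G-rich other rows, at 61.9% or more, had cartilage differences from 0.12 to 0.81 at 1 week, with a median of 0.22, and from -0.03 to 0.32 at 6 weeks. miR-5126, the richest, was the one at 0.81. Of the 78 rows with GGGG, 11 were called higher and 1 (miR-361-5p) lower at 1 week, with a median of 0.11, and 3 (miR-6904-5p, miR-7030-5p and miR-7118-5p) higher and 0 lower at 6 weeks, with a median of 0.05. The shares called higher, 14.1% and 3.85%, stand beside 15.8% and 9.59% over all 438 rows. The shares called lower, 1.28% and 0%, stand beside 12.1% and 7.31%. Only rows with a sequence can be sorted by GGGG. Over the 363 other rows with one, 12.9% and 6.89% were called higher and 12.4% and 7.44% lower. In 17 other cartilage rows G and U made up at least 80% of the bases. Of these, 35.3% and 29.4% were called higher and 23.5% and 5.88% lower at 1 and 6 weeks. Their median r with miR-6931-5p was 0.71 over the cartilage arrays and 0.06 within groups. With 75th-percentile centring the former was 0.32. Across rows the share of G correlated with the cartilage difference at r = 0.31 at 1 week and 0.25 at 6 weeks, and with the bone difference at -0.04 and 0.02.

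**Figure D5:**
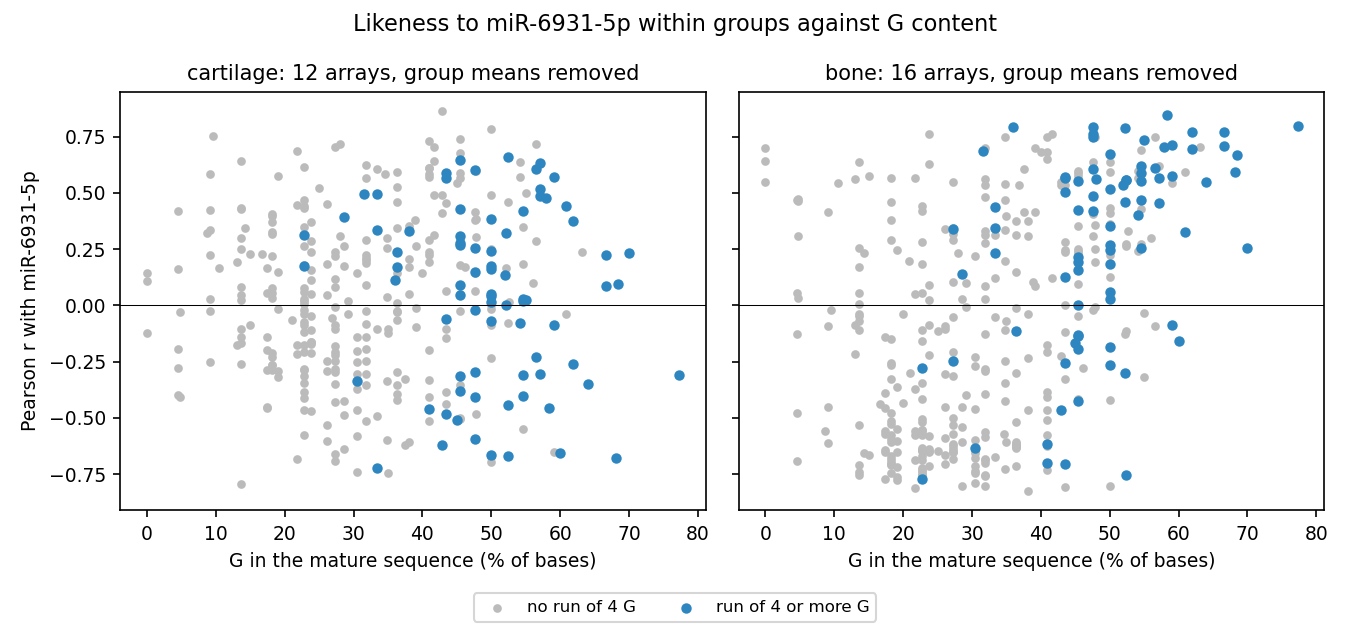
Share of G in the mature sequence (horizontal axis, % of bases) against the Pearson r of each row with miR-6931-5p after group means were removed (vertical axis), in cartilage (left, 12 arrays, 363 rows) and bone (right, 16 arrays, 398 rows). Blue points are rows with a run of 4 or more G. The points rise to the right in bone (r = 0.44 across rows) and form no slope in cartilage (0.07).

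The summed leukocyte miRNAs ran against miR-6931-5p between bone mice. All 5 listed (miR-142a-3p, miR-142a-5p, miR-223-3p, miR-150-5p and miR-342-3p) were measured. Their summed log2 signal was 12.96 to 14.39 in 1-week sham, 12.65 to 13.57 in 1-week DMM, 12.68 to 13.12 in 6-week sham and 12.27 to 13.42 in 6-week DMM. Within groups its r with miR-6931-5p was -0.748 over the 16 mice, -0.671 without sham mouse 68 and -0.616 without the 2 mice farthest from the median. The member values were -0.741 for miR-223-3p, -0.657 for miR-142a-5p, -0.575 for miR-142a-3p, -0.136 for miR-150-5p and -0.086 for miR-342-3p. After quantile normalization they were -0.368, -0.605, -0.737, 0.252 and 0.470 in the same order. The other summed lists had within-group r of -0.56 (cartilage, 3 of 4 markers measured), -0.07 (erythroid, 4 of 5), 0.35 (muscle, 1 of 4), -0.58 (endothelial, 2 of 2) and -0.52 (mesenchymal, 5 of 5). Without the 2 mice farthest from the median these were -0.21, 0.32, 0.32, -0.32 and -0.29 in the same order. The part of these cells in the bone values of miR-6931-5p was not tested.

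miRNAs with high numbers were annotated late, mostly from sequencing. Among the 121 other cartilage rows numbered 6000 or above, 18 were called higher and 2 (miR-6954-5p and miR-6972-5p) lower at 1 week, with a median of 0.07, and 7 higher and 0 lower at 6 weeks, with a median of 0.02. The shares called higher, 14.9% and 5.79%, stand beside 15.8% and 9.59% over all 438 rows. The shares called lower, 1.65% and 0%, stand beside 12.1% and 7.31%. Both medians were -0.02 when arrays were centred on their 75th percentile. The nearest to miR-6931-5p were miR-6348 (1.14 at 1 week and 0.98 at 6 weeks) and miR-6918-5p (1.13 and 0.93). Since miR-6931-5p was chosen for its difference, its distance from these rows is no result. In bone, where limma called 0 of the 144 such rows, their median within-group r with it was 0.25, and 0.13 without sham mouse 68.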

How the data were processed

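The values are log2 signals of Agilent SurePrint mouse miRNA arrays (release 21, 1 colour, 70 ng of total RNA, per the labels' protocols) as deposited by the authors. The log2 scale was read from their range, 4.08 to 16.7. The submitters' processing notes name limma 3.20.9. For background correction, normalization and the row filter, the sources used here give nothing. The median of an array lay between 6.26 and 6.32 in cartilage and between 6.17 and 6.39 in bone. 0 columns of sample values were left unused.

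limma 3.58.1 (R 4.3.3, with jsonlite 2.0.0 for the labels) fitted group means over all rows of a tissue, with empirical Bayes moderation and Benjamini-Hochberg adjustment, at a threshold of 0.05. The fit was tested on simulated data. P-values measure the spread between single mice in bone and between pools in cartilage.

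miR-6931-5p, the lists and the rule for named rows were chosen with earlier results of these data known. Named were the 8 highest and 4 lowest correlations over cartilage arrays, within cartilage groups and within bone groups, the 6 rows sharing most 6-base words, the cell type markers, and the rows numbered 6000 or above nearest in difference. Other rows were named where a value turned on them, after their values were seen.

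Alternatives were quantile normalization, 75th-percentile centring, a trended robust prior, array weights, dropping dim rows, fitting only the groups compared, exact permutation, a replicate block in cartilage, Spearman's rho and leaving out each array. Scaling and left-out arrays for the lists and markers were added after seeing the data. Cartilage replicate numbers were not taken to pair samples in the main fit. Deviations of same-numbered DMM and sham pools correlated at 0.03, -0.39 and -0.37 at 1 week and -0.45, -0.48 and -0.04 at 6 weeks. With 3 pools a group, these values cannot show whether the numbers carry a shared factor.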

Additional observations from a re-analysis of the deposited data

How the results depend on the processing

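The cartilage differences of miR-6931-5p kept their direction under each alternative run. Leaving out each array gave 2.43 to 2.70 at 1 week, 1.61 to 1.97 at 6 weeks, -0.56 to -0.20 between weeks in sham, -1.31 to -1.02 between weeks in DMM and -0.99 to -0.62 for the change of the effect. The other alternatives gave 2.41 to 2.70 and 1.63 to 1.76 for DMM against sham. With the replicate block the estimates stayed at 2.59 and 1.76, with an SE of 0.16. The effect in cartilage minus that in bone ran from 2.26 to 2.52 at 1 week and 1.54 to 1.91 at 6 weeks with arrays left out.

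In bone no alternative passed the threshold. Array weights gave 0.37 at 1 week (limma adjusted p = 0.0635). Centring on the 75th percentile gave 0.32 there, and moved the median difference of the 489 other bone rows from -0.06 to 0.08. Between weeks in DMM mice the sign turned to -0.038 with 75th-percentile centring and -0.039 with array weights. With arrays left out the bone differences ran from 0.07 to 0.30 at 1 week, -0.023 to 0.16 at 6 weeks, 0.03 to 0.25 between weeks in sham, -0.066 to 0.082 between weeks in DMM and -0.24 to -0.01 for the change of the effect. The sign turned without sham mouse 10 (-0.023) or DMM mouse 21 (-0.0065) at 6 weeks, and, between weeks in DMM, without mouse 5 (-0.036), 77 (-0.066) or 21 (-0.051). The cause was not tested.

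The counts of like rows moved most. Over cartilage arrays, 11 rows at 0.9 or above became 2 with Spearman's rho, 6 with 75th-percentile centring and 6 to 30 with arrays left out (30 without sham pool 1 of week 6). Within cartilage groups 11 rows at 0.7 or above became 7 with rho and 7 to 25 with arrays left out. Within bone groups 26 became 15 (without sham mouse 68) to 45 (without DMM mouse 25). Over all bone arrays 16 became 25 with rho, 8 with quantile normalization, 25 with 75th-percentile centring and 11 to 25 with arrays left out. Scanner background and detection values were not used here, so how far a signal stands above background is unknown.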
